A study of Homo sapiens with 20 samples.

Results

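The 5 anti-apoptotic genes of the BCL2 family, MCL1, BCL2L1, BCL2L2, BCL2 and BCL2A1, were followed in a human neuroblastoma cell line treated with nutlin-3. The genes were taken by their names in the gene annotation, and the list was chosen with earlier results of these data known. They are 5 of the 34439 mRNA and lncRNA genes with a transcript in the files, and all 5 were found, with 27 transcripts in all. The NGP line is a neuroblastoma line with amplified MYCN and MDM2, and every sample comes from this line, grown in 6-well format. One group of 10 samples received nutlin-3 as a racemic mixture at 8 µM, and the other 10 samples received ethanol, the vehicle. The sample labels give no treatment time. Poly(A) RNA was sequenced from stranded libraries as read pairs, and the estimated counts per sample summed to between 14455477 and 19532971 in vehicle (median 17819527) and to between 15078052 and 17442896 in nutlin (median 15675936). The study calls the samples biological replicates, but nothing in the labels ties a sample to a separate culture, so the p values measure the spread between samples, part of which may be technical.

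Mitochondrial apoptosis is decided among proteins of the BCL2 family. BAX and BAK1 are the effectors that open the outer mitochondrial membrane, and the anti-apoptotic members hold them, and the BH3-only activators, in an inactive complex by way of a surface groove. BH3-only proteins such as PUMA (gene BBC3) and NOXA (gene PMAIP1) fill this groove. The compound nutlin-3 occupies a pocket of the MDM2 protein. Among the anti-apoptotic members, MCL1 has a short-lived mRNA and a short-lived protein, BCL2L1 encodes BCL-xL, BCL2L2 encodes BCL-w, BCL2 is the founding member, and BCL2A1 encodes BFL-1, which is best known from leukocytes. Venetoclax binds BCL2, and separate inhibitors bind BCL-xL and MCL1, so the balance among the members is of interest in this tumor type.

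The coding sequence of every member is interrupted by an intron at the same place, inside the conserved BH2 motif, and some of the alternative transcripts measured here (MCL1-201, BCL2L1-202 and BCL2-203) differ there. The 30 bases across each junction are shown because they tell the transcripts of a gene apart and show how closely the members resemble each other there. They were read from the GENCODE release 44 transcripts on GRCh38, the build named for the files, with 15 bases before the junction in lower case and 15 bases after it in capitals.
MCL1-202, exon 2 to exon 3, chr1:150578244 to chr1:150577491, minus strand: aaacaaagaggctggGATGGGTTTGTGGAG
BCL2L1-201, chr20:31721655 to chr20:31666086, minus strand: gagaacggcggctggGATACTTTTGTGGAA
BCL2L2-201, chr14:23308199 to chr14:23308816, plus strand: agcagtgggggctggGCGGAGTTCACAGCT
BCL2-202, chr18:63318082 to chr18:63128759, minus strand: gataacggaggctggGATGCCTTTGTGGAA
BCL2A1-201, chr15:79970700 to chr15:79961174, minus strand: caaaacggaggctggGAAAATGGCTTTGTA

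The 5 junctions shared an unbroken run of 7 bases, the last 6 before the junction and the first after it, and 9 of the 30 bases in all. BCL2L1 and BCL2 were the closest pair, with 26 of 30 bases the same, and BCL2L2 matched BCL2L1 and BCL2A1 at only 13 of 30 bases each. The transcripts that lack or move this junction are shown next, with the usual form of exon 1 of MCL1 for comparison.
MCL1-202, exon 1 to exon 2, chr1:150578843 to chr1:150578491, minus strand: agacggccttccaagGCATGCTTCGGAAAC
MCL1-201, exon 1 to exon 3, chr1:150578843 to chr1:150577491, minus strand: agacggccttccaagGATGGGTTTGTGGAG
BCL2L1-202, upstream donor, chr20:31721844 to chr20:31666086, minus strand: cagagctttgaacagGATACTTTTGTGGAA
BCL2-203, no junction, chr18:63318082 to chr18:63318081, minus strand: gataacggaggctggGTAGGTGCACTTGGT

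MCL1-201 leaves out the 248 bases of exon 2 (chr1:150578244-150578491) and encodes the short form MCL-1S, which is known to promote apoptosis. BCL2L1-202 uses a donor 189 bases upstream of the usual one and encodes the short form BCL-xS, which is also pro-apoptotic. BCL2-203 reads on past the donor into the intron and encodes the beta form of BCL2, which lacks the membrane anchor.

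In vehicle samples MCL1 was by far the most abundant member. Levels of different genes are compared in TPM, a share of all transcripts corrected for transcript length. MCL1 (chr1:150560895-150579738, minus strand) was at 120 to 151 TPM in vehicle (median 136), with a mean of 135.4 ± 11.5 (SD, n = 10). BCL2L1 (chr20:31664452-31723989, minus strand) was at 18.9 to 24.2 TPM, with a median of 19.9 and a mean of 20.6 ± 1.88. BCL2L2 (chr14:23298790-23311751, plus strand) was at 13.8 to 18.1 TPM, with a median of 16.2 and a mean of 16.2 ± 1.5. The last expressed member was BCL2 (chr18:63123346-63320128, minus strand), at 8.23 to 12.7 TPM with a median of 11.2 and a mean of 10.8 ± 1.45. BCL2A1 (chr15:79960892-79971196, minus strand) was listed at 0 in 7 of 10 vehicle samples and did not exceed 0.135 TPM.

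In nutlin samples the levels lay close to these. MCL1 was at 102 to 138 TPM (median 126), with a mean of 124.6 ± 10.3 (SD, n = 10). BCL2L1 was at 17.5 to 20.9 TPM (median 19.6), with a mean of 19.3 ± 1.24, and BCL2L2 was at 13.5 to 19.8 TPM (median 14.8), with a mean of 15.3 ± 1.86. The level of BCL2 was 6.99 to 10.2 TPM, with a median of 7.76. BCL2A1 was listed at 0 in 6 of 10 nutlin samples and did not exceed 0.239 TPM. On the TPM scale the vehicle and nutlin ranges overlapped for every member.

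The order MCL1, BCL2L1, BCL2L2, BCL2, BCL2A1 was the same in both conditions, and each gene exceeded the next in 10 of 10 samples of each condition. In vehicle, MCL1 exceeded BCL2L1 by 6.53 times and BCL2L1 exceeded BCL2L2 by 1.27 times, and BCL2L2 exceeded BCL2 by 1.51 times. In nutlin the same ratios were 6.40, 1.27 and 1.90. These ratios are means over samples on log2(TPM + 0.1), and since the order was read from the same values, no test of it is given. MCL1 made up 73.06 to 75.01% of the summed TPM of the 5 members in vehicle (median 74.1%) and 70.2 to 76.8% in nutlin (median 74.8%).

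After nutlin, 3 of the 5 members fell, none rose and 2 did not pass the test. The background is high: of the 27697 genes tested, 58.8% were called as significantly differentially expressed (SDE) at 5% FDR, and 26.5% were called as lower in nutlin. All 4 expressed members had a mean of at least 10 CPM (counts scaled to library size), and of the 9880 genes at that abundance 85.0% were called and 57.6% were called lower, so 3 of 4 members called lower is not far from what genes of that abundance did. The median log2 fold change (LFC) was −0.18 over the 4 expressed members, −0.22 over genes of at least 10 CPM and 0.19 over all genes tested. The plot of levels by sample shows both scales, TPM and the CPM that the test uses after TMM scaling. In these bulk samples fewer expressing cells and less RNA per cell cannot be told apart.

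**Figure D1:**
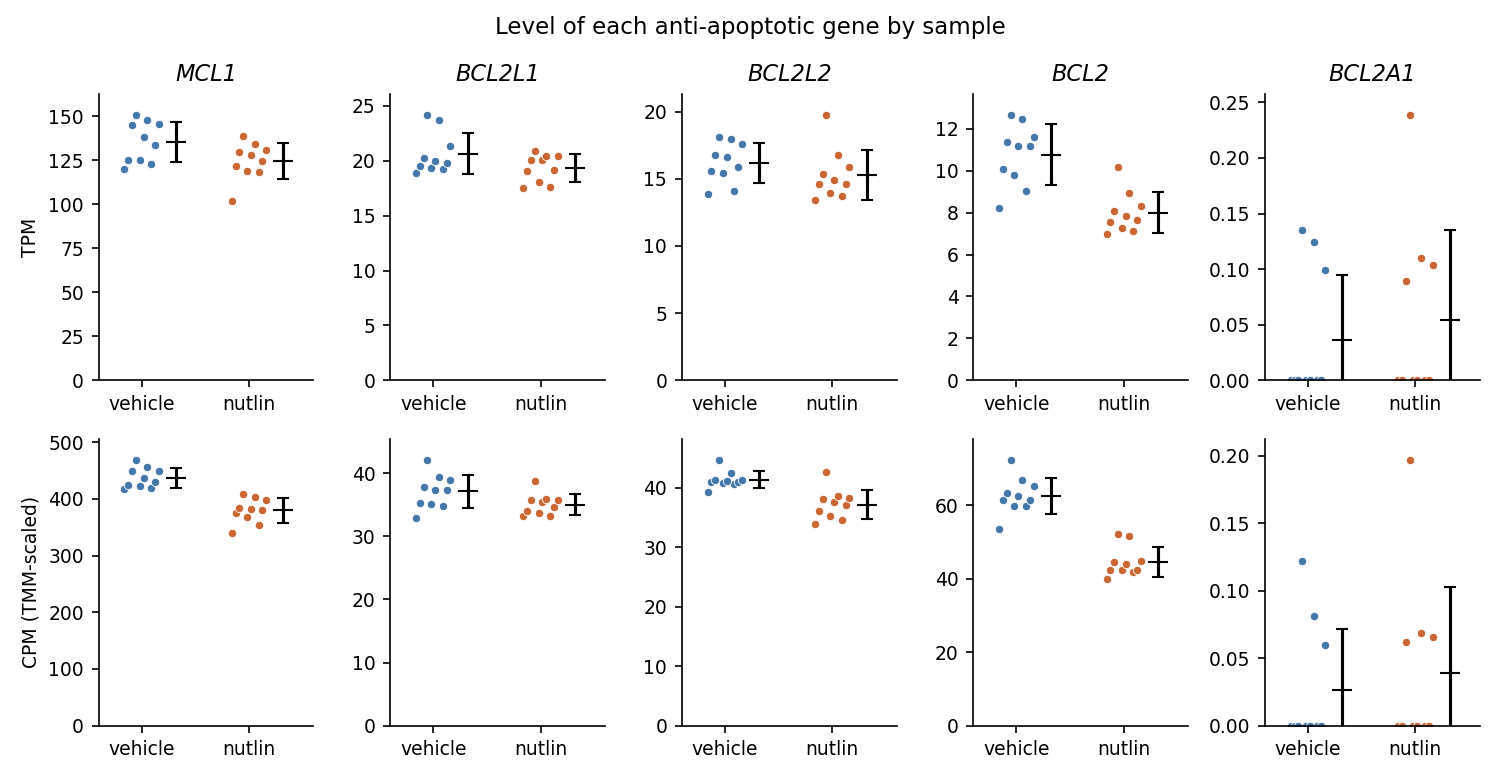
Levels of the 5 genes in each of the 10 vehicle (blue) and 10 nutlin (orange) samples, in TPM (top) and TMM-scaled CPM (bottom), with the mean and SD in black (SD bars are cut at 0). In CPM every nutlin sample lies below every vehicle sample for MCL1 and BCL2, whereas the groups overlap for BCL2L1 and BCL2L2, and BCL2A1 is near 0 throughout.

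BCL2 was the member that changed most. It was at 53.5 to 72.3 CPM in vehicle (median 61.99) and at 39.9 to 52.3 CPM in nutlin (median 43.3). Every nutlin sample was below every vehicle sample. The same held for 58.3% of genes of at least 10 CPM, in either direction. BCL2 fell by 28.7%, an LFC of −0.49 ± 0.051 (SE, n = 10 per group), with an adjusted p of 1.1e-09 by the quasi-likelihood test of edgeR. Its LFC lay 0.27 below the median of genes of at least 10 CPM, and 29.9% of those genes had a lower LFC. In TPM, 7 of 10 nutlin samples were below the lowest vehicle sample, with a mean of 7.99 ± 0.967 against 10.8 ± 1.45.

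MCL1 fell by less. It was at 418 to 468 CPM in vehicle (median 434) and at 341 to 409 CPM in nutlin (median 381). The groups did not overlap in CPM. In TPM they did, with 3 of 10 nutlin samples below the lowest vehicle sample and 9 of 10 below the vehicle median. MCL1 fell by 13.2% (LFC −0.20 ± 0.035, adjusted p = 6.7e-06, edgeR), which is at the median of genes of at least 10 CPM, where 50.9% had a lower LFC. The call held at a smaller LFC with the effective length offset (−0.12) and the filterByExpr filter (−0.13). The 95% interval of the MCL1 LFC was −0.28 to −0.13 and that of BCL2 was −0.59 to −0.38.

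BCL2L2 also fell by 10.03%. It was at 39.2 to 44.6 CPM in vehicle (median 41.0) and at 33.8 to 42.6 CPM in nutlin (median 37.3). In 9 of 10 nutlin samples it was below the lowest vehicle sample. The LFC was −0.15 ± 0.039 with an adjusted p of 0.00115 (edgeR). This call was lost with the filterByExpr filter (LFC −0.076, adjusted p = 0.061) and with an offset for effective length (LFC −0.084, adjusted p = 0.23). It was also lost when the readthrough gene BCL2L2-PABPN1, which shares the BCL2L2 exons and continues into the neighbouring gene PABPN1, was summed with BCL2L2 (LFC −0.094, adjusted p = 0.096). The readthrough gene itself was at 7.11 TPM in vehicle and 8.07 TPM in nutlin and did not pass the test (adjusted p = 0.42), and PABPN1 fell from 203 to 125 TPM.

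BCL2L1 did not pass the test. It was at 32.9 to 42.0 CPM in vehicle (median 37.4) and at 33.2 to 38.8 CPM in nutlin (median 34.96). The nutlin samples all lay within the vehicle range. The LFC was −0.082 ± 0.042, with a 95% interval of −0.17 to 0.0045 and an adjusted p of 0.098 (edgeR). Without vehicle replicate 4 the gene passed narrowly (LFC −0.10, adjusted p = 0.037, edgeR), and with the filterByExpr filter the LFC was −0.0051 (adjusted p = 0.91, edgeR). Relative to the median of genes of at least 10 CPM its LFC was 0.13 higher, and 59.7% of those genes had a lower LFC.

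BCL2A1 was not detectable as an expressed gene at this depth. It had 4 estimated counts over the 10 vehicle samples and 6 over the 10 nutlin samples, with at most 2 and 3 in a single sample. A count of 0 allows up to 3 counts, which is 0.154 to 0.208 CPM in vehicle libraries and 0.172 to 0.199 CPM in nutlin libraries, for counting error only. Both conditions were therefore at or under this limit, and no fold change is read from them. Among markers of leukocytes, where BCL2A1 is best known, CD3E was listed at 0 in both conditions. Of the 5 that could be tested, 3 rose (MS4A1, ITGAM and LYZ) and 2 did not pass, and the 7 leukocyte markers together reached 1.45 to 3.70 TPM in vehicle and 6.22 to 7.87 TPM in nutlin.

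**Figure D2:**
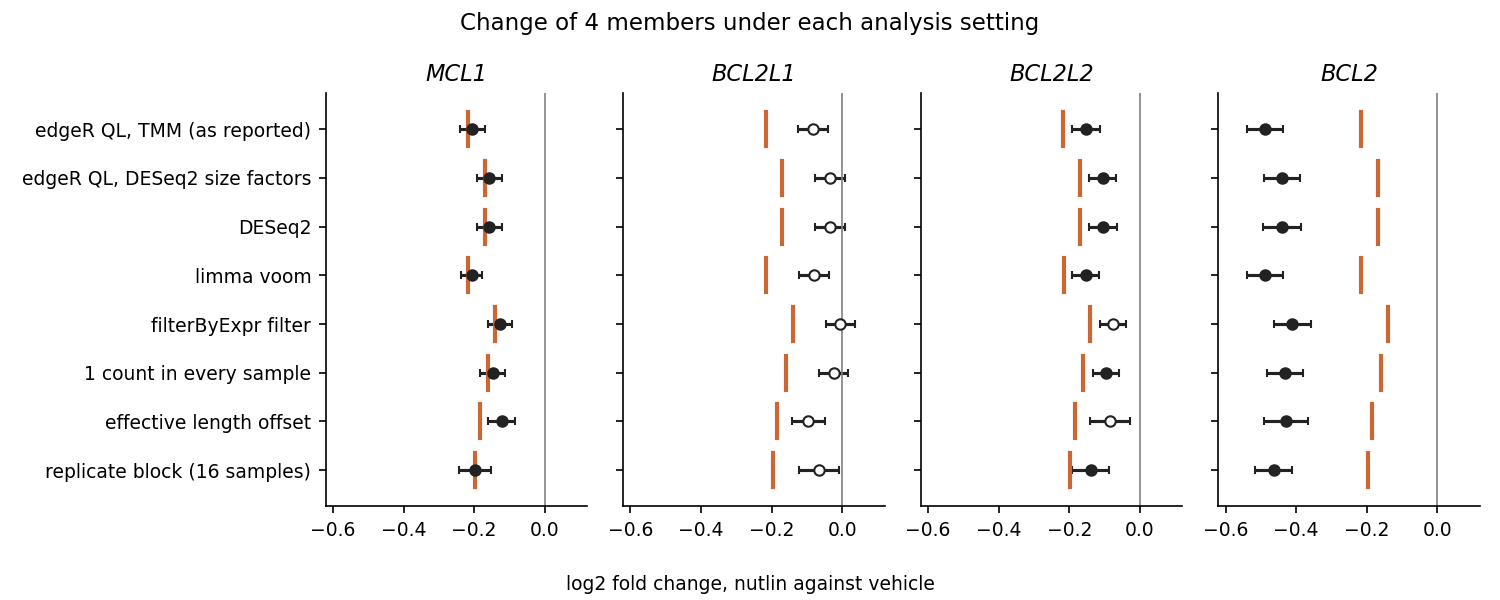
LFC of 4 members (x axis, with SE bars) under 8 analysis settings (rows). Filled points passed 5% FDR and open points did not, and the orange tick is the median LFC of genes of at least 10 CPM under the same setting. BCL2 lies to the left of the tick in every row, MCL1 lies close to it, and BCL2L1 and BCL2L2 lie to its right.

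The transcripts of the members were examined next. The estimated counts per transcript come from a probabilistic assignment of reads that several transcripts share, and they are not direct counts. Of the 27 transcripts, 25 had counts in both conditions. At transcript level 3 of them rose and 4 fell at 5% FDR, against 23.3% of all 119877 transcripts tested called in either direction. The test of transcript usage, which asks whether a transcript changed differently from the rest of its gene, called 1 of the 25, against 3.46% of all transcripts tested. The alternative test, limma diffSplice, called 6 of the 25. Its share called over all transcripts is not given here, so its passes below are not read as support for a shift. Coding lengths are those of GENCODE release 44, and 16 of the 27 transcripts have another total length there than in the files.

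MCL1-202, the long form with an intact groove and membrane anchor, held 89.0 to 92.8% of MCL1 counts in vehicle (median 90.4%) and 85.4 to 91.3% in nutlin (median 88.4%). Its mean level was 109.8 TPM in vehicle and 91.6 TPM in nutlin, and it fell at transcript level (LFC −0.22 ± 0.040, adjusted p = 0.00017, edgeR). Its share did not pass the usage test (adjusted p = 1.0, edgeR), but passed with limma diffSplice (adjusted p = 0.0076). MCL1-205, which has an additional intron within exon 1, held 5.55 ± 1.64% of counts in vehicle and 4.91 ± 1.33% in nutlin and passed neither test (adjusted p = 0.15 at transcript level and 0.86 for usage, edgeR).

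The other 3 transcripts of MCL1 hold on average under 5% of its counts in both conditions and were looked at after their values had been seen. All 3 rose at transcript level. Their shares were larger on the TPM scale, where the mean share was higher in nutlin by 4.57 percentage points for MCL1-203, 2.83 for MCL1-201 and 1.06 for MCL1-204. MCL1-201, the exon 2 skipping form, had a share of 0.457 to 1.73% in vehicle (median 0.993%) and 0.585 to 3.44% in nutlin (median 2.0%). The ranges overlap, with a mean of 1.06 ± 0.457% against 2.01 ± 0.800% (SD, n = 10). Its LFC was 0.75 ± 0.27 with an adjusted p of 0.049 (edgeR), and its mean level was 5.03 TPM in vehicle and 8.31 TPM in nutlin. In the usage test it had an adjusted p of 0.053, and it passed with the filterByExpr filter (0.019) and with diffSplice (0.0085). It did not pass when restricted to coding transcripts (adjusted p = 0.13, edgeR) or with the replicate block (adjusted p = 0.25, edgeR).

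MCL1-203, in which the first intron is retained, showed a similar shift. It held 1.85 to 4.42% of counts in vehicle (median 2.31%) and 2.60 to 6.25% in nutlin (median 4.10%), with overlapping ranges. Its LFC was 0.50 ± 0.15 (adjusted p = 0.020, edgeR), and the usage test gave an adjusted p of 0.059, with 0.012 under the filterByExpr filter 0.0043 with diffSplice and 0.16 with the replicate block. MCL1-203 is 1099 bases long in the files and 4550 bases long in release 44.

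MCL1-204 was the only transcript of a member whose usage passed the main test of edgeR. This is 1 of 25, near the 3.46% of all transcripts tested, so nothing particular to MCL1 is read from the call. It has no coding sequence and lies downstream of the coding exons (chr1:150560895-150574552). Its counts ran from 0 to 10.6 in vehicle (median 6.77) and from 12.5 to 29.7 in nutlin (median 23.5). Its share was 0 to 0.144% in vehicle and 0.218 to 0.508% in nutlin, with no overlap. How many of all transcripts have shares that do not overlap was not examined. The LFC was 2.0 ± 0.40 (adjusted p = 0.00056) and the usage adjusted p was 0.0056 (both edgeR). The annotated genes ADAMTSL4-AS1 on the same strand and ADAMTSL4 on the other strand overlap its far end, and both rose, by 8.58 and 2.74 times. The use of strand in the counting is not given in the sources used here, and the part of these neighbours in the counts of MCL1-204 was not tested.

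**Figure D3:**
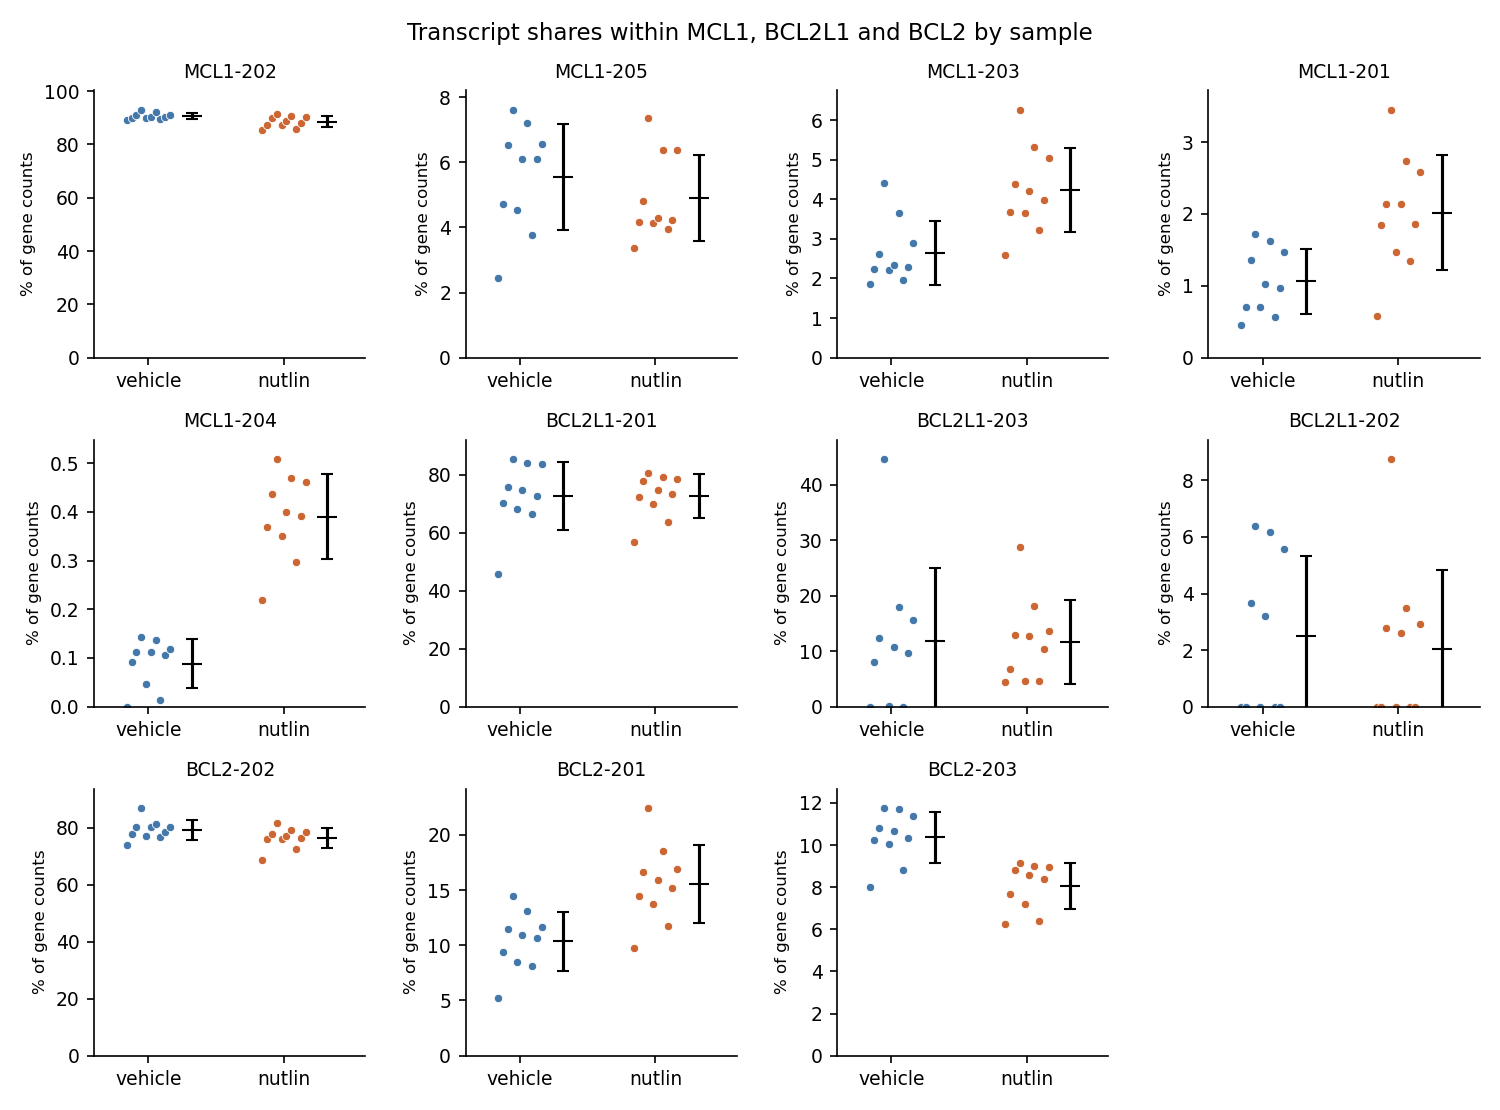
Share of the gene's estimated counts held by single transcripts, in percent, in each of the 10 vehicle (blue) and 10 nutlin (orange) samples, with the mean and SD in black (SD bars are cut at 0). The shares of MCL1-204 do not overlap between the conditions, those of MCL1-201, MCL1-203 and BCL2-201 are shifted up with overlap, and the BCL2L1 shares are widely spread in both.

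In BCL2L1 no transcript passed at transcript level or in the usage test of edgeR, and BCL2L1-203 alone passed with limma diffSplice (adjusted p = 0.033), at a dispersion of 1.34. BCL2L1-201 held 45.6 to 85.3% of counts in vehicle (median 73.7%) and 56.8 to 80.4% in nutlin (median 74.1%). BCL2L1-203, which encodes the same long form, ran from under 0.001 to 44.6% in vehicle and from 4.48 to 28.8% in nutlin. The ranges of both transcripts were wide. Summed over the 6 transcripts with the coding length of BCL-xL, the share was tighter, at 93.0 ± 2.38% in vehicle and 92.3 ± 3.20% in nutlin, or 18.1 ± 1.41 and 16.6 ± 1.13 TPM. The 2 transcripts with the coding length of BCL-xS summed to 4.34 ± 2.61% and 4.74 ± 2.73%, or 1.14 ± 0.538 and 1.30 ± 0.531 TPM. BCL2L1-202 alone, which was looked at for its pro-apoptotic product, was listed at a share of up to 6.37% in vehicle and up to 8.75% in nutlin, with a median of 1.6% and 1.3%.

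In BCL2 the transcripts did not move alike in size. BCL2-202, the alpha form that carries the membrane anchor, fell (LFC −0.52 ± 0.062, adjusted p = 6.2e-07, edgeR) and held 79.3 ± 3.44% of counts in vehicle and 76.3 ± 3.60% in nutlin. BCL2-203, the beta form, fell as well (LFC −0.85 ± 0.12, adjusted p = 5.2e-06, edgeR). Its share was 7.99 to 11.7% in vehicle (median 10.5%) and 6.24 to 9.14% in nutlin (median 8.47%). BCL2-201, which has the same coding sequence as BCL2-202 but an additional intron within the first exon, had an LFC of 0.11 ± 0.17 (adjusted p = 0.71, edgeR), and its share was 5.25 to 14.4% in vehicle (median 10.8%) and 9.74 to 22.4% in nutlin (median 15.6%). None of these passed the usage test (adjusted p = 1.0 for BCL2-202, 0.80 for BCL2-203 and 0.39 for BCL2-201, edgeR), whereas BCL2-201 passed with diffSplice (adjusted p = 0.0013). BCL2L2-201 held 95.5 ± 0.877% of BCL2L2 counts in vehicle and 94.1 ± 1.11% in nutlin and fell at transcript level (LFC −0.16 ± 0.038, adjusted p = 0.0033, edgeR).

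The genes of the proteins that the anti-apoptotic members bind changed in both directions and by very different amounts. Of the 8 BH3-only genes, 4 rose, 3 fell and 1 did not pass, with a median LFC of 0.66, and all 3 effectors rose, with a median LFC of 0.51. Of all genes tested, 58.8% were called in either direction and 26.5% were called lower. The BH3-only median includes BIK at a mean of 0.375 CPM and HRK at 1.54 CPM, beside BBC3 at 91.6 CPM. The effector median is the LFC of BOK, at a mean of 4.17 CPM. BBC3, the gene of PUMA, was at 1.95 to 4.94 TPM in vehicle and at 103 to 154 TPM in nutlin (LFC 5.41 ± 0.10, adjusted p = 3.4e-27, edgeR). In vehicle, MCL1 TPM was 25.4 to 64.5 times BBC3 TPM (median 44.7), and in nutlin it was 0.886 to 1.14 times BBC3 TPM (median 0.954). PMAIP1, the gene of NOXA, which binds MCL1, rose from 15.6 ± 2.50 to 36.0 ± 2.82 TPM (LFC 1.06), and MCL1 TPM went from a median of 8.80 times to 3.43 times that of PMAIP1. BAX rose from 206 ± 18.6 to 617 ± 11.4 TPM (LFC 1.63), while BAK1, which MCL1 and BCL-xL hold, rose from 11.6 to 14.7 TPM (LFC 0.37).

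Summed over genes, the anti-apoptotic members stood at 163 to 202 TPM in vehicle and 142 to 180 TPM in nutlin, and the BH3-only genes at 88.2 to 106 TPM and 190 to 253 TPM. The ratio of these sums was 1.6 to 2.17 in vehicle (median 1.97) and 0.664 to 0.869 in nutlin (median 0.718). The change of this ratio rested largely on BBC3: with BBC3 left out of the sum, a choice made after its values were seen, the ratio was 1.66 to 2.27 in vehicle (median 2.03) and 1.51 to 1.86 in nutlin (median 1.67), and the ranges overlapped. It is a description of mRNA levels and no measure of protein. The BH3-only genes that fell were BCL2L11, the gene of BIM (LFC −0.81), BID (LFC −0.44) and BAD (LFC −0.40). BCL2L11, whose protein is bound by every member, had 4.43 ± 0.887 TPM in vehicle and 3.93 ± 1.19 TPM in nutlin, and BCL2 TPM was a median of 2.38 times BCL2L11 TPM in vehicle and 2.16 times in nutlin. The direction of this ratio depends on the scale, since on the count scale of the test BCL2L11 had the lower LFC (−0.81 against −0.49 for BCL2).

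**Figure D4:**
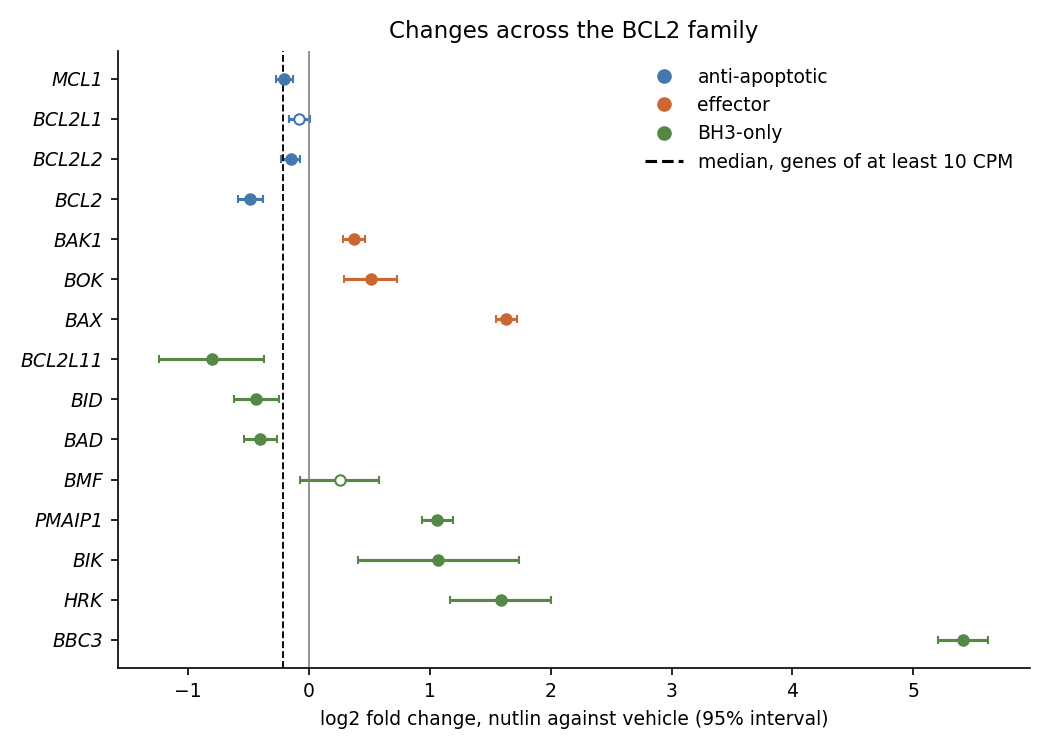
LFC (x axis, points with 95% intervals) of 4 anti-apoptotic members, 3 effectors and 8 BH3-only genes. Filled points passed 5% FDR, open points did not, and the dashed line is the median LFC of genes of at least 10 CPM, −0.22. The anti-apoptotic members lie between −0.49 and −0.082, the effectors lie to the right of 0, and BBC3 is at 5.41.

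Genes that act on the members were examined by lists. Among 5 genes for enzymes that set the stability of MCL1 protein, 3 fell, 1 rose and 1 did not pass (median LFC −0.22). Of genes of at least 10 CPM, 57.6% were called lower. FBXW7, part of a ubiquitin ligase for MCL1, rose from 8.51 to 20.6 TPM (LFC 0.90), and USP13, a deubiquitinase for MCL1, fell from 12.01 to 6.82 TPM (LFC −1.44). All 15 splicing regulators tied to the BCL2L1 or MCL1 choice fell, against the same 57.6%. Their median LFC of −0.42 is that of RBM11, at a mean of only 1.46 CPM, and the median over genes of at least 10 CPM was −0.22. The largest fall was that of PTBP1 (LFC −0.93 ± 0.033, adjusted p = 8.2e-21, edgeR), and HNRNPA1 (LFC −0.10) and RBM25 (LFC −0.090) were among the smallest. Of 6 further homologues, BCL2L13 rose slightly (LFC 0.23), BCL2L14 rose, at a mean below 1 CPM, BCL2L12 fell (LFC −0.70) and 3 did not pass. Over all genes tested, 58.8% were called in either direction. These lists were chosen with earlier results of the same data known, and nothing particular to them is drawn from the counts.

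MDM2 and CDKN1A, genes known to respond to nutlin-3, were checked against the labels. MDM2 rose from 218 to 3483 TPM (LFC 4.51) and CDKN1A, the gene of p21, from 18.5 to 955 TPM (LFC 5.68). All 9 genes that mark sympathoadrenal neuroblastoma were present in both conditions, together at 2727 to 3150 TPM in vehicle and 3309 to 4230 TPM in nutlin, and the 7 Schwann cell and fibroblast markers were together at 7.56 to 10.98 TPM and 10.7 to 14.7 TPM, with SOX10 listed at 0 in nutlin. The share of estimated counts on transcripts that matched the annotation was 96.66 to 96.78% in vehicle and 95.71 to 95.95% in nutlin. These totals differ between the conditions, and their part in the changes of the members was not tested.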

How the data were processed

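Poly(A) RNA of the NGP line was sequenced as paired reads of stranded libraries. Per the labels, kallisto 0.42.4 and the build hg38 were used. For each transcript the authors deposited estimated counts, which are not normalized, TPM values, scaled by kallisto for effective length and library size, and effective lengths. The deposited effective lengths were used in 1 alternative only.

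Transcripts were matched to GENCODE release 44 by identifier without version (191106 of 198968, 96.05%), and those of mRNA and lncRNA genes were kept. Estimated counts were summed per gene and rounded. Genes were kept if both conditions held 1 count or more. They entered the quasi-likelihood F-test of edgeR 4.0.16 in R 4.3.3, with TMM normalization and a model of condition alone, and p values were adjusted over all genes by Benjamini-Hochberg to 5% FDR. Transcripts were tested likewise, and transcript usage with diffSpliceDGE. The gene, transcript and usage tests of edgeR were first tried on simulated data, and the alternatives below were not. There a usage call was counted as wrong only in a gene without a changed transcript. Such wrong calls fell on transcripts whose dispersion among vehicle samples was above 0.5, and none below it. Wrong calls within genes that held a changed transcript were not counted. MCL1-204 had a dispersion of 0.139, but in the fit of both conditions, which is another quantity. The simulation did not model reads shared between transcripts, so it cannot bear on the MCL1-204 call. Alternatives were DESeq2 size factors, DESeq2 1.42.0, limma 3.58.1 (voom, diffSplice), filterByExpr (minimum 10 counts), at least 1 count in every sample, an effective length offset, the replicate number as a block, leaving out each sample, and other definitions of BCL2L2 and of the shares. Tables and plots used Python 3.11.15, pandas 2.3.3 and matplotlib 3.10.9.

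The members, the pathway lists and the cell type markers were chosen with earlier results of these data known. Transcripts with at least 5% of the gene's mean counts in either condition were named, and from each list the largest rise and fall among SDE genes of at least 1 CPM, with all BH3-only and effector genes allowed. Some items are not reported here.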

Additional observations from a re-analysis of the deposited data

Results flagged for a closer look

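Within a group of 10 samples, 5 of the 38 series of values examined had a sample far from the others relative to the range. Chance gives about 1 in 20 for independent series of normally distributed values. The series here share genes, and those of BCL2A1 and BCL2L1-202 hold many values at 0, so no excess is read from the count. BCL2L2 stood at 19.8 TPM in nutlin replicate 4, with the nearest other nutlin sample at 16.8 TPM. BCL2A1 stood at 0.239 TPM in nutlin replicate 10, with the nearest at 0.110 TPM. In vehicle replicate 10, BCL2L1-203 held 44.6% of the BCL2L1 counts, against 17.9% in the next sample, and BCL2L1-201 held 45.6%, against 66.3% in the next. BCL2L1-202 held 8.75% in nutlin replicate 3, with the next sample at 3.50%. Causes were not tested.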

How the results depend on the processing

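BCL2 and MCL1 kept their direction and passed 5% FDR in all 7 other settings and without each of the 20 samples in turn, with an LFC of −0.49 to −0.41 and −0.21 to −0.12 over the settings. BCL2L2 no longer passed with the filterByExpr filter (−0.0756), with the effective length offset (−0.0837) or with BCL2L2-PABPN1 summed in (−0.0936), and had an LFC of −0.57 with PABPN1 summed in too. Leaving out each sample in turn, the LFC of BCL2L1 ran from −0.100 to −0.0392 and passed without vehicle replicate 4 only (over the other settings it ran from −0.0961 to −0.0051 and never passed), and the fitted value of BCL2A1, which is at the counting limit and no fold change, ran from −0.223 to 1.03, with the sign reversed without nutlin replicate 10. BCL2A1 could not be tested with the filterByExpr filter or the filter on every sample, which drop it. The number of SDE genes ran from 13131 to 16385 over the settings, with 16275 as reported. The share of MCL1-202 changed by −2.20 percentage points in counts and by −7.46 points in TPM, and passed the usage test with diffSplice. Samples with the same label number did not deviate together (mean r of 0.0035 over 8 pairs, none above 0.1), so the number is not taken as a pairing. With the replicate block over 16 samples, the LFC was −0.46 for BCL2, −0.20 for MCL1, −0.14 for BCL2L2 and −0.065 for BCL2L1, 14276 genes were called, and MCL1-204 kept its usage call (adjusted p = 0.025, edgeR). The causes of these differences were not tested. BCL2A1, and the minor transcripts with few counts, are limited by depth.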

Other observations

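For each of the 4 expressed members, the protein-coding genes whose log2 CPM followed it most closely over the 20 samples, after the mean of each condition was removed, were sought among 9442 genes of at least 10 CPM. All values come from the same 20 libraries. MCL1 was closest to SOX11 (Pearson r = 0.93), KNTC1 (r = 0.90) and QKI (r = 0.89). BCL2 was closest to CNTN1 (r = 0.90), GPR155 (r = 0.90) and NBEA (r = 0.87). BCL2L1 was closest to TIMM50 (r = 0.84), BOLA3 and PISD (r = 0.83 each), and BCL2L2 to DLC1 (r = 0.84), WDR12 (r = 0.82) and KTN1 (r = 0.80). Each r is among the highest of 9442 for its member, and the level that chance would give was not examined. Of these 12 genes, 10 were lower in nutlin and 2, GPR155 and PISD, were higher, all at 5% FDR by edgeR. Of all genes of at least 10 CPM, 85.0% were called in either direction and 57.6% were called lower, so nothing particular to the 12 is read from this count.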
